A study of Rattus norvegicus with 6 samples.

Results

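The genes described here are 10 core genes of the circadian clock: the activators Npas2, Arntl and Clock, the repressors Per1, Per2, Per3, Cry1 and Cry2, the nuclear receptor Nr1d1 and the output factor Dbp. They were taken by symbol from 15677 distinct gene symbols listed for pancreatic duct glands of the rat. All 10 were found, and all 10 were among the 12102 genes with enough reads to be tested. The set was built around Npas2 because its level was higher in every HIP library than in every wild-type library, so the difference of Npas2 is a description here and carries no test. The other 9 genes were chosen for their place in the clock, and the question put to the data was whether they moved with Npas2.

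The study compared RNA from pancreatic duct glands, which are mucin-producing outpouchings of the wall of the larger pancreatic ducts, between wild-type (WT) rats and pre-diabetic HIP rats. All rats were of the Sprague-Dawley strain, and HIP rats carry in addition a transgene for human islet amyloid polypeptide (HIAPP), which an insulin promoter drives in beta cells and which makes the line a model of type 2 diabetes. The 3 WT libraries are named WT26, WT1, WT4 and the 3 HIP libraries HIP30, HIP2, HIP3, and values below keep that order; each was made with a kit for very small amounts from total RNA of tissue recognised by its morphology and cut out with a laser. Age, sex, the hour of tissue collection and feeding state are not given in the sources used here. Nor is it stated whether separate rats gave the separate libraries, so a p-value speaks only of the variation among the libraries, part of which may be technical.

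The circadian clock is a transcriptional loop that runs in nearly every cell. ARNTL, also called BMAL1, pairs with CLOCK or with its paralog NPAS2, and the pair binds E-box sequences and switches on the Per, Cry, Nr1d1 and Dbp genes. PER and CRY proteins then return to the nucleus and block the pair, while NR1D1 (REV-ERB alpha) represses Arntl, Npas2 and Cry1 through elements that it shares with the activating ROR receptors. As a result the transcripts of Nr1d1, Dbp and the Per genes peak at another time of day than those of Arntl and Npas2, and peripheral clocks such as that of the pancreas are set by feeding and by glucocorticoids.

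The libraries held 15141136 to 17574682 reads on the listed genes. Levels are given as CPM, the reads of a gene scaled to a common library size with TMM factors (trimmed means of log ratios), and at this depth the members rested on 136 reads (Cry1 in WT4) to 3154 reads (Npas2 in HIP30). Of a list of 10 duct markers, 6 were listed with Krt19 the most abundant, and all 6 had reads in every library, with a summed level of 4627 to 12267 CPM in WT and 4915 to 5887 CPM in HIP. WT4 and HIP3 stood apart by RNA of islets. The 6 listed beta cell markers of 8 sought, with the insulin genes Ins1 and Ins2 among them, summed to 11309 CPM in WT4 and 5051 CPM in HIP3, against 93.8 CPM in WT1 and 153 CPM in HIP2, and all 6 were at 0 reads in WT26 and HIP30. HIP30 and HIP2 stood apart by 10 mitosis markers, which summed to 95.5 and 461 CPM against 1885 to 2962 CPM in the other 4 libraries, and 7 of the 10, including the proliferation antigen Mki67, had no read in HIP30.

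Npas2 was the member with the clearest separation between the groups, which is how it was chosen. Its level was 62.6, 72.8 and 90.3 CPM in the WT libraries and 192, 156 and 105 CPM in the HIP libraries. HIP30 and HIP2 lay well above the WT range, whereas HIP3 lay just above WT4. The means were 151 ± 43.4 CPM in HIP and 75.2 ± 14.0 CPM in WT (SD, n = 3), a difference of 0.98 on the log2(CPM + 0.121) scale with a standard error of 0.26. That difference ran from 0.79 without HIP30 to 1.22 without HIP3, and it was 1.61 between HIP30 and WT26 and 0.66 among the libraries numbered 1 to 4 in their titles. The labels do not say what these numbers stand for or whether they mark a batch. Each number series holds as many WT as HIP libraries, so taking the series as a covariate could not move the difference. Its standard error was then 0.26. Without WT4 and HIP3 together it was 1.36.

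Sums of mitosis, fibroblast, smooth muscle and macrophage markers set HIP30 and HIP2 apart, as Npas2 did. They did not follow its order among the other 4 libraries. Sums of endothelial, neural, beta cell and acinar markers did not set HIP30 and HIP2 apart. The endothelial sum, for example, was 144 and 132 CPM there, 127 to 215 CPM in WT and 186 CPM in HIP3. The mitosis sum was lowest in HIP30 and HIP2, the libraries with the most Npas2. The 9 fibroblast markers listed of 10 sought summed to 432 and 778 CPM in HIP30 and HIP2, against 1786 CPM in HIP3 and 1439 to 2211 CPM in WT. The 8 smooth muscle markers summed to 103 and 165 CPM in HIP30 and HIP2, against 239 CPM in HIP3 and 214 to 339 CPM in WT. The sum of 9 macrophage markers was 2477 and 2479 CPM in HIP30 and HIP2 and 440 to 802 CPM in the other 4 libraries, and this gap came from Mpeg1 alone, since the other 8 markers summed to 440 to 617 CPM in every library. The most abundant of those 8 was Cd14, with a difference between HIP and WT of -0.23. It was the only macrophage marker with a negative difference, and 8 of the 9 had a positive one. The part of these cells in the Npas2 difference was not tested, and in bulk tissue more cells of a type and more RNA per cell cannot be told apart.

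**Figure D1:**
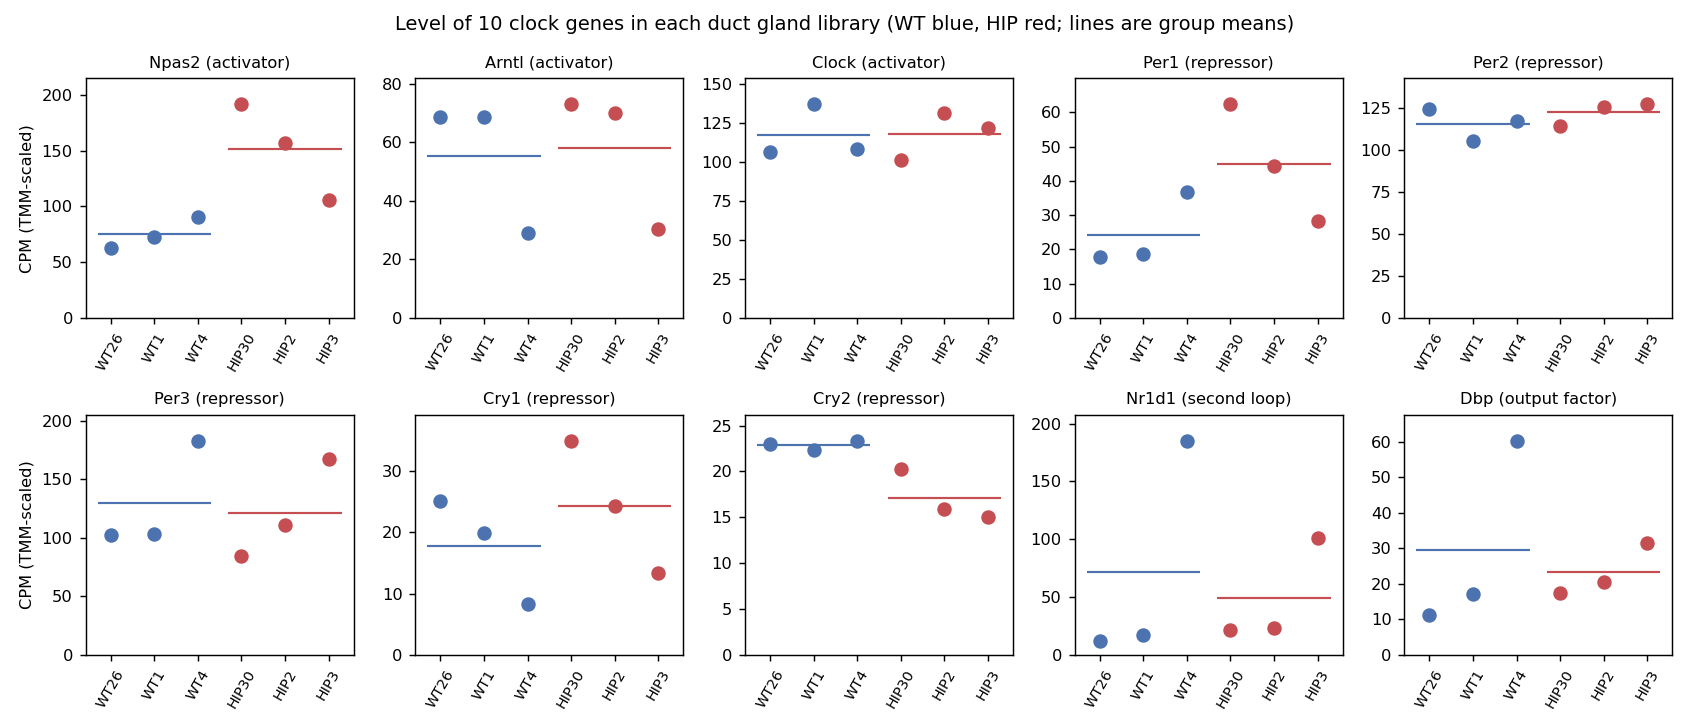
Level of each of the 10 clock genes in CPM (TMM-scaled, linear axes from 0) in the 3 WT libraries (blue) and the 3 HIP libraries (red), with a line at each group mean. Npas2 runs from 62.6 to 90.3 CPM in WT and from 105 to 192 CPM in HIP, while Nr1d1 and Dbp are highest, and Arntl and Cry1 lowest, in WT4 and HIP3.

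The partners of Npas2 in the activating arm did not show its separation. Clock, the paralog that takes the same place beside ARNTL, had 107, 137 and 108 CPM in the WT libraries and 101, 131 and 122 CPM in the HIP libraries. The groups overlapped throughout, the difference was 0.01 on the log2 scale with a 95% interval of -0.42 to 0.44, and its sign turned with size factors in place of TMM factors (-0.01). The ratio of the highest to the lowest library was 1.35 for Clock and 3.06 for Npas2.

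Arntl, which encodes the obligate partner of both, had 68.7, 68.5 and 29.1 CPM in the WT libraries and 73.1, 70.2 and 30.5 CPM in the HIP libraries. WT4 and HIP3 held less than any other library, and the remaining 4 libraries lay between 68.5 and 73.1 CPM. The group difference was 0.06 with a 95% interval of -0.96 to 1.09 (limma, Benjamini-Hochberg adjusted p = 0.983). Arntl2, a paralog of Arntl that is listed beyond the 10 genes, had 25.0, 18.5 and 18.8 CPM in the WT libraries and 10.5, 12.5 and 15.9 CPM in the HIP libraries. Every HIP library lay below every WT library, as in 4.27% of tested genes. The difference of -0.69 with a standard error of 0.29 missed the threshold over all genes (limma, Benjamini-Hochberg adjusted p = 0.691, unadjusted p = 0.0471). With library totals as the scaling its unadjusted p was 0.0662.

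Sequences of clock elements are shown for the members and other loop genes described here that carry them near an annotated start, because the loop is defined by these sites. RefSeq promoter windows of the GRCr8 build, reaching from 250 bases before to 50 bases after a start, were matched for 9 of the 10 members, with Arntl under its current symbol Bmal1, as Arntl2 was under Bmal2. The windows were searched on each strand for the E-box CACGTG, the related E-prime box CACGTT, the D-box written TTATGTAA or TTACGTAA, the element of NR1D1 and ROR receptors (RORE) written TAGGTCA or TGGGTCA, and the cyclic AMP element CRE, TGACGTCA. Of all 33469 windows, 6.42% held the E-box, 4.83% the E-prime box, 1.01% a D-box, 6.60% a RORE and 1.83% a CRE. Each stretch below reads 5′ to 3′ on the strand of its gene, with the element in capitals, where AACGTG is the E-prime box on the other strand.
Arntl RORE, chr1:176766301-176766329, plus strand: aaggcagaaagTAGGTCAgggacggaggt
Per2 E-prime box, chr9:99497039-99497066, minus strand: acgcgcgcggtCACGTTttccactatgt
Per2 D-box, chr9:99497167-99497196, minus strand: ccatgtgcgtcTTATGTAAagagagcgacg
Nr1d1 E-box, chr10:84229629-84229656, minus strand: gtcagctcccaCACGTGtctggggatcc
Nr1d1 E-prime box, chr10:84231970-84231997, minus strand: gcatagagctcAACGTGcccgctgctgg
Cry2 E-prime box, chr3:98860633-98860660, minus strand: cacatggtgggAACGTGagggggcgggg
Arntl2 E-prime box, chr4:181437412-181437439, plus strand: ttacgttgctgAACGTGacaatacggac
Tef E-box, chr7:115206618-115206645, plus strand: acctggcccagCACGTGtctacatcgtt
Bhlhe40 E-box, chr4:143174219-143174246, plus strand: gcgttgtccaaCACGTGagactcatgtg

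The Arntl element begins 16 bases before the annotated start and the Per2 E-prime box 62 bases before it. The Nr1d1 elements belong to 2 annotated starts of that gene. No element is shown for Npas2, Clock, Per1, Per3 or Dbp, because none was found in their windows, and Cry1 had no window. No CRE was found in the windows of the members or the other loop genes. Matches with fewer than 11 bases to a window end were left out for these genes. Per2 and Nr1d1, which both carry an E-type element in these windows, stood at opposite ends of the members by their spread, as the values below show. These matches are letters in a window and not measured binding, and the windows come from another genome build than the rn5 build named in the submitters' processing notes.

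The Per genes, whose proteins block the activating pair, differed among themselves. Per1 had 17.7, 18.5 and 36.7 CPM in the WT libraries and 62.4, 44.3 and 28.2 CPM in the HIP libraries. HIP30 and HIP2 lay above every WT library, but HIP3 lay below WT4, so the groups overlapped. The difference was 0.89 with a standard error of 0.39 and a 95% interval that ends close to 0 (-0.0017 to 1.79), and it did not pass over all genes (limma, Benjamini-Hochberg adjusted p = 0.691, unadjusted p = 0.0503). It was 0.62 without HIP30, 1.23 without WT4, 1.19 without HIP3 and 1.53 without WT4 and HIP3 together (limma, Benjamini-Hochberg adjusted p = 0.0786, against 0.219 to 0.9999 under the other alternatives), and 1.81 between HIP30 and WT26 against 0.44 among the libraries numbered 1 to 4.

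Per2, a period gene whose loss disturbs the rhythm of mice, was the steadiest member. It had 124, 106 and 117 CPM in the WT libraries and 114, 126 and 127 CPM in the HIP libraries, and the highest library exceeded the lowest by a ratio of 1.21. Its standard deviation over the 6 libraries, 0.10 on the log2 scale, stood at percentile 1.4 of all tested genes. The difference was 0.08 with a 95% interval of -0.29 to 0.45, and when scaled by library totals the groups no longer overlapped, with 124 to 128 CPM in HIP against 98.5 to 122 CPM in WT.

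Per3, which is thought to be less needed for the rhythm itself, had 102, 103 and 183 CPM in the WT libraries and 84.6, 111 and 167 CPM in the HIP libraries. Its highest libraries were WT4 and HIP3, the libraries where Arntl was lowest. The difference between groups was -0.10 with a 95% interval of -0.83 to 0.64 (limma, Benjamini-Hochberg adjusted p = 0.963).

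The cryptochromes, the partners of the PER proteins in repression, also went different ways. Cry1 had 25.2, 20.0 and 8.27 CPM in the WT libraries and 35.0, 24.4 and 13.4 CPM in the HIP libraries, and so was lowest where Arntl was lowest. Its difference of 0.48 with a standard error of 0.50 was within the spread of the libraries (limma, Benjamini-Hochberg adjusted p = 0.849) and was 0.007 without WT4. Cry2 had 23.0, 22.4 and 23.3 CPM in the WT libraries and 20.3, 15.9 and 15.01 CPM in the HIP libraries. It was the only member besides Npas2 whose groups did not overlap, on the lower side as in 4.27% of tested genes (5.27% did so on the higher side), with a difference of -0.43 and a 95% interval of -1.01 to 0.14 (limma, Benjamini-Hochberg adjusted p = 0.696), and with library totals HIP30 (22.1 CPM) lay within the WT range of 20.9 to 24.3 CPM.

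Nr1d1, the repressor of the second loop, was the member that varied most. It had 12.0, 16.9 and 185 CPM in the WT libraries and 21.4, 23.4 and 101 CPM in the HIP libraries. WT4 and HIP3 exceeded all other libraries, and the highest library exceeded the lowest by a ratio of 15.4, a spread at percentile 94.6 of all tested genes. The group difference was 0.14 with a 95% interval of -2.24 to 2.52, and its sign turned when WT26, WT1 or HIP3 was left out (-0.59, -0.35 and -0.58), while it was 1.37 without WT4. Nr1d1 overlaps the thyroid hormone receptor gene Thra in the GRCr8 annotation, and since it is not stated whether reads were counted by strand, reads of these genes may be shared. Thra had 18.4, 29.3 and 55.9 CPM in the WT libraries and 64.4, 52.6 and 37.1 CPM in the HIP libraries. Its highest library was HIP30, where Nr1d1 was low, and the next was WT4, where Nr1d1 was highest. Whether reads were shared was not tested.

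Dbp, a transcription factor that carries the rhythm to output genes through D-boxes, had 11.03, 17.1 and 60.3 CPM in the WT libraries and 17.4, 20.6 and 31.5 CPM in the HIP libraries. As for Nr1d1, WT4 was highest and HIP3 the next. The difference between groups was -0.0038 with a 95% interval of -1.37 to 1.36, and its sign turned with library totals (0.07) and with limma-voom (0.0003). It ran from -0.51 without WT26 to 0.70 without WT4, and it was also positive without HIP30 (0.18) and without HIP2 (0.059).

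**Figure D2:**
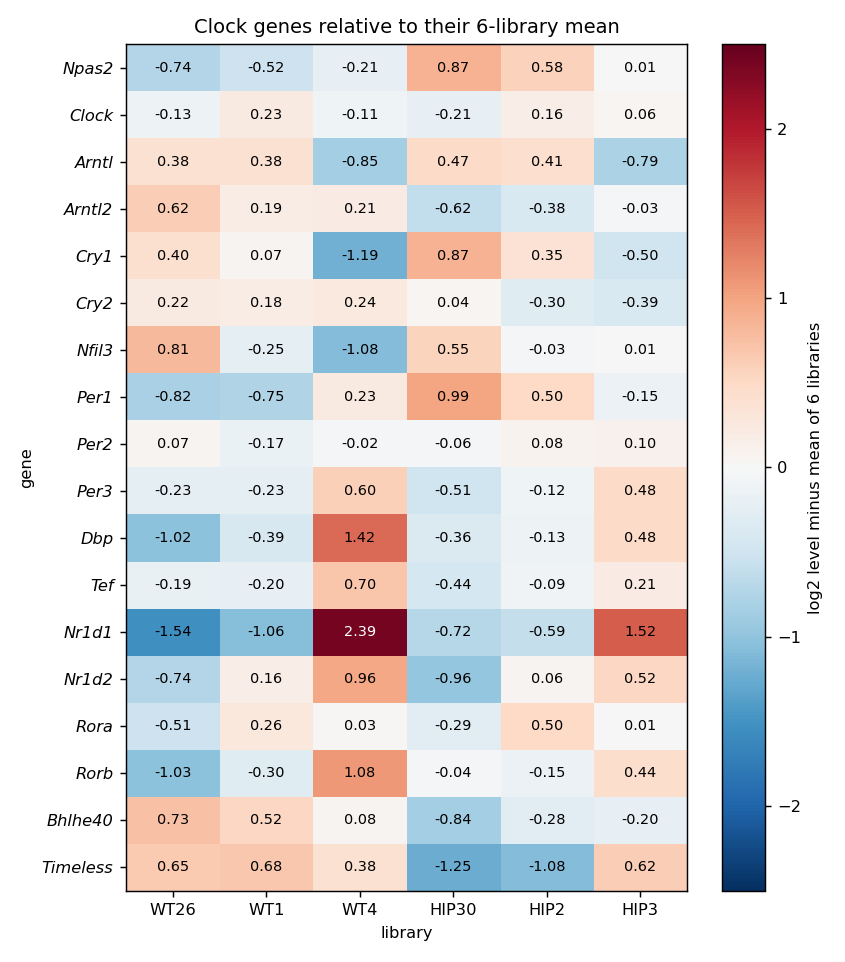
Log2 level of the 10 clock genes and 8 other transcription factors and partners of the clock loops in each library, minus the mean of the 6 libraries for that gene (colour scale and printed value). WT4 and HIP3 share high Nr1d1 (2.39 and 1.52), Dbp and Per3 with low Arntl (-0.85 and -0.79) and Cry1, while Npas2 and Per1 are highest in HIP30 and HIP2.

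Read by library, 7 of the members fell into 2 orders, which were picked out after the values were seen and carry no test. In the first order, Nr1d1, Dbp and Per3 were higher in WT4 and HIP3 than in any other library, and Arntl and Cry1 were lower there than in any other library. Relative to the mean of all 6 libraries, Nr1d1 stood at 2.39 and 1.52 on the log2 scale in WT4 and HIP3, Dbp at 1.42 and 0.48 and Per3 at 0.60 and 0.48, against -0.85 and -0.79 for Arntl and -1.19 and -0.50 for Cry1. In the second order, Npas2 and Per1 were highest in HIP30, next in HIP2 and lowest in WT26. Npas2 did not follow Arntl, with which it is usually grouped by phase: HIP30 and WT26 had Arntl levels of 73.1 and 68.7 CPM and Npas2 levels of 192 and 62.6 CPM.

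The libraries with high Nr1d1 and Dbp were also those with RNA of islet and acinar cells. Of 8 acinar markers, 7 were listed, and they summed to 71.4 CPM in WT4 and 103 CPM in HIP3 against 21.2 to 38.9 CPM in the other libraries, where most of the sum was Cela1; 5 of the 7 were at 0 reads in WT26 and in HIP30. WT1 and HIP2 had 93.8 and 153 CPM of beta cell markers, against 11309 and 5051 CPM in WT4 and HIP3. Nr1d1 stood at 16.9 and 23.4 CPM in WT1 and HIP2, and at 12.0 and 21.4 CPM in WT26 and HIP30, which had none. With so little RNA of beta cells in WT1 and HIP2, these levels could not decide whether beta cells add to Nr1d1. Beta cells carry a clock of their own, and their part in the levels of WT4 and HIP3 was not tested. The hour of collection cannot be told apart from the library, since the sources used here give none.

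Set against all genes, the comparison of HIP with WT gave no clock gene that passed. Of the 9 members other than Npas2, 0 had an adjusted p under 0.05, where 0% of the 12102 tested genes did (limma, Benjamini-Hochberg). At an unadjusted p under 0.05 there were also 0 of 9, where 6.54% of tested genes (792) were found, and limma-voom gave 1 of 9, which was Per1, and 914 genes. The unadjusted limma value of Per1 was also under 0.05 with a pseudocount of 10 reads (0.0491), without the filter on low values (0.0496), without WT4 (0.0123), without HIP3 (0.0152) and without both (0.00191). Groups did not overlap in 1 of 9 (Cry2, lower in HIP), where 9.54% of tested genes did not, 4.27% on the lower and 5.27% on the higher side. Of the 9 genes, 6 had a positive and 3 a negative difference, with a median of 0.06 against 0.01 over all tested genes, and the number with a positive difference ran from 4 (without WT26, or without HIP3) to 7 (without HIP30) with each library left out. The count of genes at an unadjusted p under 0.05 moved from 792 to 1804 without HIP3 and 1605 without WT4, and to 338, 336, 280 and 235 without WT26, WT1, HIP30 and HIP2.

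**Figure D3:**
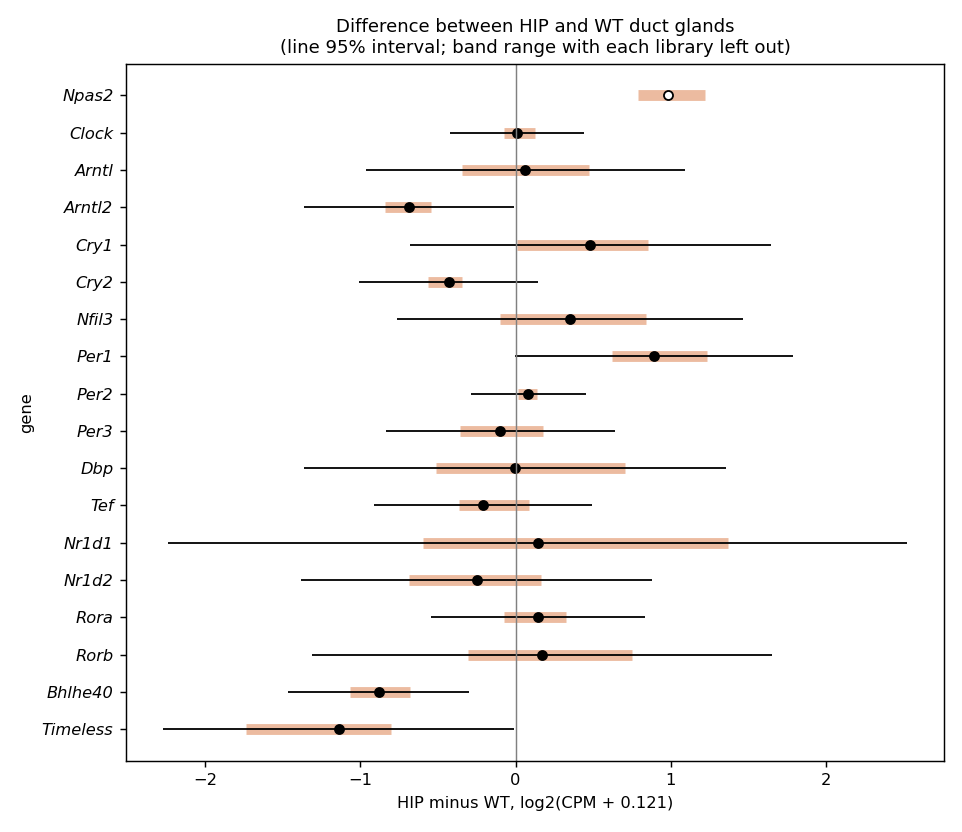
Difference of HIP minus WT on the log2(CPM + 0.121) scale for the 10 clock genes and 8 further clock loop genes: points are the value over all 6 libraries, lines the 95% interval of limma and bands the range when each library is left out in turn. Npas2 (open point, 0.98) has no interval because it was chosen for this difference; the Nr1d1 interval runs from -2.24 to 2.52 and that of Per2 from -0.29 to 0.45.

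Of 12 other transcription factors and partners of the clock loops, 8 were listed and tested, and none passed over all genes. At an unadjusted p under 0.05, 3 of the 8 were lower in HIP and 0 higher, where 3.26% and 3.29% of tested genes were. Besides Arntl2 these were Bhlhe40 and Timeless. Scaled by library totals, Bhlhe40 kept an unadjusted p under 0.05 (0.00525), and Arntl2 (0.0662) and Timeless (0.0521) did not. Bhlhe40 (DEC1), an E-box repressor that also responds to hypoxia and growth signals, had 638, 551 and 406 CPM in the WT libraries and 215, 316 and 335 CPM in the HIP libraries. No HIP library reached the lowest WT library, as in 4.27% of tested genes. The difference was -0.88 with a standard error of 0.25 (limma, Benjamini-Hochberg adjusted p = 0.691, unadjusted p = 0.00798). It ran from -1.06 to -0.68 with each library left out, where its sign could not turn because the groups did not overlap. Without WT4 and HIP3 together it was -1.19 (limma, adjusted p = 0.0853, and up to 0.9999 under the other alternatives). Among the libraries numbered 1 to 4 it was -0.54 (limma, unadjusted p = 0.0626).

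Timeless, whose mammalian protein acts in replication and checkpoint control as well as beside the clock, had 28.4, 29.0 and 23.6 CPM in the WT libraries, 7.54 and 8.49 CPM in HIP30 and HIP2 and 27.8 CPM in HIP3. Its low libraries were those with few reads of mitosis genes, whose part in this was not tested. The difference was -1.14 with a standard error of 0.49 (limma, Benjamini-Hochberg adjusted p = 0.691), and -1.73 without HIP3. Its unadjusted p of 0.0481 became 0.0583 with the number series as a covariate, and it lay between 0.0722 and 0.148 when any library other than HIP3 was left out.

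The other genes of the second loop and of the output arm followed the first of the 2 orders in part. Nr1d2, the paralog of Nr1d1, had 46.0, 86.0 and 150 CPM in the WT libraries and 39.6, 80.3 and 110 CPM in the HIP libraries, and Tef, a D-box factor related to Dbp, had 39.8, 39.4 and 73.6 CPM and 33.5, 42.6 and 52.6 CPM in the same order. Each was highest in WT4 and next in HIP3. Nfil3, which opposes Dbp at D-boxes, had its lowest level, 6.99 CPM, in WT4 and its highest, 26.2 CPM, in WT26, and in HIP3 it stood at 15.01 CPM beside 14.6 CPM in HIP2. The ROR receptors, which activate Arntl, showed no such order for Rora, at 24.3 to 41.5 CPM in WT and 28.3 to 49.1 CPM in HIP, while the low-level Rorb was highest in WT4 (5.29 CPM) and next in HIP3 (3.37 CPM). Their differences between groups were -0.25 for Nr1d2, -0.21 for Tef, 0.35 for Nfil3, 0.15 for Rora and 0.17 for Rorb, each smaller than its standard error.

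Genes that act on clock proteins after translation showed no member that passed. Of 19 listed kinases, ubiquitin ligases and chromatin partners, 16 were tested and 0 passed over all genes or at an unadjusted p under 0.05 (limma), which 6.54% of tested genes reached, with a median difference of -0.05. Their median standard deviation over the 6 libraries was 0.25 on the log2 scale, against 0.38 over all tested genes and 0.64 over the 9 clock members without Npas2. Csnk1d and Csnk1e, the casein kinases that mark PER proteins for decay, had 197 to 244 CPM and 26.6 to 50.1 CPM in WT and 196 to 236 CPM and 33.4 to 47.8 CPM in HIP. Btrc, the ligase subunit that takes up phosphorylated PER, and Kat5, an acetyltransferase, had differences of 0.48 and 0.24 (limma, Benjamini-Hochberg adjusted p = 0.692 and 0.762). Of 11 tested output genes 5 were positive and 6 negative, with a median of -0.01, and 1, the P450 reductase Por, had an unadjusted p under 0.05 (0.0315), a share close to the 6.54% of tested genes. Por had 92.5, 102 and 79.5 CPM in the WT libraries and 52.5, 62.5 and 75.6 CPM in the HIP libraries. Tsku, a secreted protein, and Klf10, a zinc finger factor, differed by 0.78 and -0.59 (limma, Benjamini-Hochberg adjusted p = 0.691 and 0.692).

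Signals that reach Per1 from outside the loop were looked at through 2 lists, since glucocorticoid receptor and CREB both act on that gene. Of 9 tested glucocorticoid response genes 3 were positive and 6 negative, with a median of -0.08, and 2 had an unadjusted p under 0.05, both higher in HIP, where 3.29% of tested genes were. None passed over all genes (limma, Benjamini-Hochberg adjusted p = 0.691 for each). The pair was Zbtb16, a zinc finger factor, with 0, 1.41 and 5.47 CPM in the WT libraries and 14.1, 14.3 and 5.51 CPM in the HIP libraries, and Cebpd, with 13.4, 10.0 and 18.9 CPM and 44.8, 27.0 and 18.9 CPM in the same order. In each, HIP30 and HIP2 were high and HIP3 was level with WT4; Per1 had the same high libraries, with HIP3 below WT4. Tsc22d3 (GILZ) was likewise highest in HIP30 (125 CPM) and HIP2 (81.6 CPM), whereas Fkbp5 and Sgk1, textbook targets of the same receptor, differed by -0.19 and -0.08. Nr3c1, the glucocorticoid receptor, had 258 to 355 CPM in WT and 207 to 255 CPM in HIP, a difference of -0.37 (limma, Benjamini-Hochberg adjusted p = 0.691).

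The second list held CREB and immediate early genes. Of 10 tested, 4 were positive and 6 negative, with a median of -0.38, and 5 had an unadjusted p under 0.05 and were lower in every HIP library than in every WT library: Fos, Junb, Egr1, Nr4a1 and Atf3. Of all tested genes, 3.26% were lower at that p and 4.27% were lower without overlap. None passed over all genes (limma, Benjamini-Hochberg adjusted p = 0.691 for each). Fos had 119, 86.8 and 80.1 CPM in the WT libraries and 19.2, 41.5 and 49.5 CPM in the HIP libraries, and Atf3, a stress-induced factor, ran from 23.2 to 100.1 CPM in WT and from 1.22 to 12.7 CPM in HIP. Nr4a1, an orphan nuclear receptor, had 12.9, 23.5 and 23.9 CPM in the WT libraries and 3.34, 10.9 and 5.39 CPM in the HIP libraries. HIP30 was the library with the most Per1 and the least Fos and Atf3. The kinase gene Sik1, which CREB also induces and which restrains the resetting of the clock, had 15.98, 15.9 and 28.6 CPM in WT and 29.7, 27.2 and 24.4 CPM in HIP. Whether glucocorticoids or CREB had a part in the Per1 levels was not tested.

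**Figure D4:**
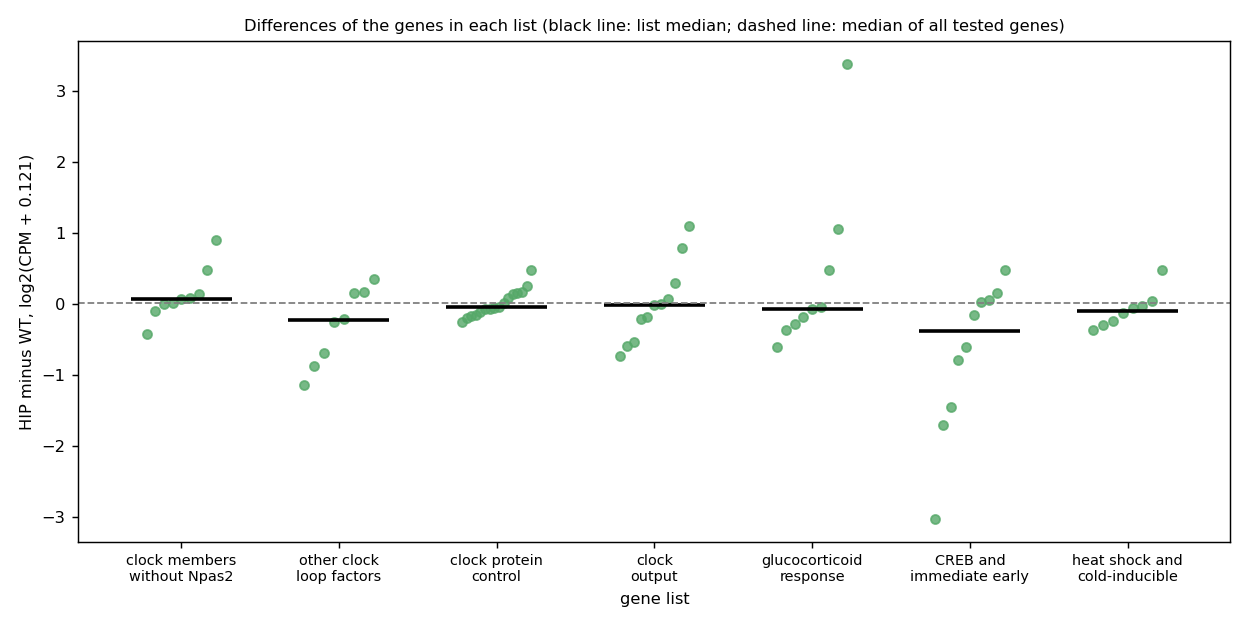
Difference of HIP minus WT on the log2(CPM + 0.121) scale for each tested gene of 7 lists around the clock (points), with the list median (black line) and the median of all tested genes (dashed line, 0.01). The medians run from -0.38 for CREB and immediate early genes to 0.06 for the 9 clock members without Npas2.

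The genes whose levels followed Npas2 most closely were found by Pearson r over the 6 libraries among 9987 tested genes with a mean of at least 5 CPM. They were Cux2 (r = 0.997), Slc10a1 (0.995), Ublcp1 (0.988), RGD1305939 (0.988) and Ppm1f (0.988). Cux2 had 5.31, 5.71 and 7.42 CPM in the WT libraries and 19.1, 14.7 and 9.19 CPM in the HIP libraries, in the same order of libraries as Npas2. The closest to Per1 were Rgl3 (r = 0.9995), the chemokine gene Cx3cl1 (0.999) and the vascular growth factor gene Vegfa (0.996), and the closest to Dbp were Hecw2, Gimap4 and Synpo (0.990, 0.987 and 0.983). The genes share these libraries and their mix of cells, and with 6 libraries such values are common: 402 genes had an r above 0.9 with Npas2, 478 with Per1 and 87 with Dbp.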

How the data were processed

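RNA sequencing of 6 libraries was used. STAR, HTSeq, edgeR and limma and the rn5 build are named, per the submitters' processing notes, and their versions and roles, the annotation and strandedness are not given in the sources used here. For each library the authors deposited 1 table with 15679 rows of gene symbols and log2 values. The deposited log2 values behave as CPM with a prior: a gene without reads stands at -6.04, and with the prior taken off 100% of values in each library are whole reads within 0.1 reads. The 4 rows of repeated symbols were left out.

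TMM factors (trims of 30% and 5%) were computed from these reads and lay between 0.933 and 1.09. Tested were genes that reached 0.610 CPM (10 reads in a library of median size) in 3 or more libraries and 15 reads over all of them. The tool was limma 3.58.1 (R 4.3.3) with its trend option, and the scale log2(CPM + 0.121), where 0.121 CPM is worth 2 reads in a library of mean size. This scale understates the change of low genes. Fits were tested on simulated reads. P-values were adjusted by Benjamini-Hochberg over 12102 genes at 0.05. The 10 members and the gene lists were chosen with earlier results of these data known. Named were all members and other loop factors, up to 3 genes of lowest p in 5 further lists, the 5 genes most like Npas2 and 3 each like Per1 and Dbp; further genes of these lists (Csnk1d, Csnk1e, Tsc22d3, Fkbp5, Sgk1, Junb, Egr1 and Sik1) and Thra were named after their values were seen. One gene that this rule names is not reported here. Reads carry no molecular identifiers, and 1 read was worth 0.0569 to 0.0660 CPM. Of distinct listed symbols, 15238 matched a GRCr8 symbol or synonym. Figures used matplotlib 3.10.9.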

Additional observations from a re-analysis of the deposited data

How the results depend on the processing

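No paired analysis was possible because the numbers in the titles are not shared between the groups. With the series of these numbers as a covariate, 962 genes had an unadjusted p under 0.05 against 792 without it. Under the 9 other settings and with each library left out, 0 genes and 0 of 9 clock members passed, and the median of all genes moved by less than 0.1. The planned edgeR and DESeq2 alternatives were not run; limma-voom was the model run on the recovered reads. Signs turned for Clock with size factors (-0.012) and without WT4 and HIP3 together (-0.070), for Dbp with library totals (0.069), limma-voom (0.0003) and without WT4 and HIP3 (0.46), for Nfil3 without WT4 and HIP3 (-0.019), and among libraries 1 to 4 for Nr1d1 (-0.20), Rorb (-0.24) and Hspa1b (0.15); the cause was not tested. Leaving out WT4 and HIP3 together and keeping libraries 1 to 4 were chosen after seeing the data. With libraries left out in turn, signs turned for Arntl (-0.35 to 0.47), Clock (-0.072 to 0.13), Per3 (-0.36 to 0.18), Nr1d1 (-0.59 to 1.37), Dbp (-0.51 to 0.70), Nr1d2 (-0.68 to 0.17), Rora (-0.074 to 0.33), Rorb (-0.30 to 0.75), Nfil3 (-0.10 to 0.84), Tef (-0.37 to 0.090) and Hspa1b (-0.56 to 0.045), while Npas2 (0.79 to 1.22), Per1 (0.62 to 1.23), Per2 (0.02 to 0.14), Cry1 (0.007 to 0.85), Cry2 (-0.56 to -0.35), Arntl2 (-0.84 to -0.55), Bhlhe40 (-1.06 to -0.68) and Timeless (-1.73 to -0.80) kept theirs. For Npas2, Cry2, Arntl2 and Bhlhe40 the groups did not overlap, so leaving out a library could not turn the sign. Each member had at least 136 reads in every library. Rows of the deposited tables without a read numbered 672 in WT4, 1837 in HIP3, 2155 in HIP2, 2440 in HIP30, 2488 in WT1 and 2822 in WT26. Neither depth nor this spread was tested as a limit.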

Other observations

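Heat shock and cold-inducible genes, which follow the daily rhythm of body temperature in many tissues, were taken as a further list of 8 tested genes. Of these 2 were positive and 6 negative, with a median of -0.10. Hsph1, a large heat shock protein, had 126, 128 and 121 CPM in the WT libraries and 163, 163 and 199 CPM in the HIP libraries. Every HIP library lay above every WT library, as in 5.27% of tested genes. The difference was 0.47 with a standard error of 0.16 (limma, Benjamini-Hochberg adjusted p = 0.691, unadjusted p = 0.0198). Rbm3, a cold-inducible RNA-binding protein, had 225 to 246 CPM in WT, 165 and 140 CPM in HIP30 and HIP2 and 249 CPM in HIP3, a difference of -0.37. Cirbp, the other cold-inducible protein of the list, had 45.02 to 60.2 CPM in WT and 43.7 to 63.5 CPM in HIP. Hspa1b differed by -0.24, and its sign turned among the libraries numbered 1 to 4.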
